A study of Mus musculus with 38 samples.

Results

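The beta-defensin genes are described here as 48 microarray probes of 44 genes, out of 40628 probes of 29411 gene names, found by their gene name (Defb followed by a number) among all probes that are not control spots. No measured value was used to choose them. Defb1 had 3 probes, and Defb19 and Defb41 had more than 1 as well. All 48 probes matched a RefSeq symbol, and 2 of them are listed there as transcribed pseudogenes under another name, Defb44 as Defb44-ps and Defb48-ps as Gm21944.

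Beta-defensins are small, positively charged, secreted peptides held together by cysteine bridges, and they damage the membranes of bacteria. A few of them, such as Defb1, Defb3, Defb4 and Defb14, are known from the linings of airway, skin, gut and urinary tract, where some are made constitutively and others after infection. Most of the mouse family is known from the epididymis, the duct in which sperm mature, where the peptides coat the sperm surface.

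The study followed C57BL/6J mice on 5 diets from weaning and profiled the stromal vascular cells of epididymal fat, which its labels also call infiltrating macrophages. LFC mice ate a low-fat control diet and HFC mice a high-fat, high-sucrose diet, with 10 arrays each, at days 6, 10 and 14 (D6, D10, D14) and at weeks 0, 3, 6, 9, 12, 15 and 18 (W0 to W18). HF5, HF20 and HF75 mice ate the same high-fat diet with 5, 20 or 75 µg of the plant formulation KAL-1, with 6 arrays each from W3 to W18. All mice were of 1 strain with no transgene, and each of the 38 arrays is the only one with its diet and time label. No p-value below therefore measures the spread of replicate animals. Diet and dose tests are set against the spread over time points, and the test between time points against that between LFC and HFC. Slopes are set against the spread left between arrays. The study's methods, written for the liver of these mice, count weeks from D14, so that D14 and W0 would be 1 time sampled in a repeat experiment. They are labelled apart and were fitted apart, with a fit as 1 time point as an alternative. Whether an array holds RNA of 1 animal or of a pool is not given in the sources used here. On 4 arrays, those of W15 and W18 in HF5 and in HF20, the diet label names the other of these doses, and the dose in the sample name was used.

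Levels are log2 signals relative to the 75th percentile of their own array, so that 0 is that percentile. A probe is called well above background where the scanner software flagged it so. The 75th percentile signal ran from 25.8 on HF5 W12 and 88.4 on HF75 W3 to 1983 on HFC W0, and the share of all probes well above background from 41.1% to 91.2%. Of 9 macrophage genes on the array 6 were well above background on all 38 arrays, as were 6 of 7 adipocyte genes. Only 1 of 23 epididymal duct genes, Lcn6, was well above background on all arrays. In these bulk samples, fewer cells of a type and less RNA per cell cannot be told apart.

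The 10 probes of 60 bases below are shown because cysteines are the feature by which the family is known: read 5′ to 3′ as deposited, each holds a reading frame without a stop codon and with at least 3 cysteine codons (TGT or TGC), which are in capitals. Whether that frame is the one the gene uses was not tested.
Defb11: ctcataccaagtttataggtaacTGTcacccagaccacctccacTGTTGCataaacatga
Defb47: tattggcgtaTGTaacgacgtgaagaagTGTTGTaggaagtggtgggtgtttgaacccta
Defb39: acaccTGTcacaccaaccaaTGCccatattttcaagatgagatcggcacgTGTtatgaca
Defb40: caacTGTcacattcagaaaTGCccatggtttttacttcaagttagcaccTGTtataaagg
Defb20: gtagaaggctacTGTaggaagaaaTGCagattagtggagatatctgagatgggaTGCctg
Defb14: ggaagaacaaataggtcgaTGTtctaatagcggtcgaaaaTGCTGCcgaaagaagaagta
Defb15: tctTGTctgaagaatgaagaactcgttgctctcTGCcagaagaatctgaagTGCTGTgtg
Defb34: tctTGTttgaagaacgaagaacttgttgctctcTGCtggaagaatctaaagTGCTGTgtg
Defb13: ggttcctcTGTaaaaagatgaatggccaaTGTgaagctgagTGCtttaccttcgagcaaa
Defb5: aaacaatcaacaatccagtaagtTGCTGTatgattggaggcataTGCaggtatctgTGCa
Adjacent cysteine codons stand in the probes of Defb11, Defb47, Defb14, Defb15, Defb34 and Defb5. The Defb15 and Defb34 probes are the only pair of different genes at least 80% identical, at 90% over 60 bases, so their signals may share target RNA. The next pair, Defb39 and Defb40, reached 64.4%, out of 1123 pairs compared over at least 40 bases.

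The beta-defensins were read over a far wider range than most probes. Between its lowest and its highest array a member spanned 4.73 to 17.83 log2 units, with a median of 10.61, against a median of 4.61 over all probes. No member was well above background on all 38 arrays and none was below it on all. At least 20 arrays read 30 of the 48 probes well above background, and fewer than 10 arrays read 6 of them (Defb46, Defb4, Defb50, Defb5, Defb8 and Defb44). The number of members well above background ran from 3 to 45 per array, with a median of 29. It was highest on HF20 W12 and lowest on HF5 W6, HF75 W6 and HF5 W12, the last being the dimmest array.

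Crisp1, a cysteine-rich secretory protein made by the epididymal duct and bound to sperm, was read beside the family. Its probe was well above background on 29 of 38 arrays. In LFC mice its level was −6.15 at D6, −7.05 at D10, 5.87 at D14, −5.96 at W0, 6.30 at W3, 6.36 at W6, 0.24 at W9, −7.56 at W12, 3.62 at W15 and −4.38 at W18. In HFC mice it was 3.16, 4.89, 5.32, 5.06, 5.80, 5.69, −8.28, 3.39, 5.64 and −7.45 at the same time points. High and low arrays therefore alternated within both diets, and the diets overlapped. Crisp1 was lowest at W6 in all 3 dose groups, at −8.27 in HF5, −8.64 in HF20 and −6.71 in HF75, and it read 8.88 on the dim HF75 W3 array. Its spot was saturated on 8 other arrays, where its level is a lower bound, so the brightest arrays have no order.

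The number of members read was then set beside Crisp1. On the 9 arrays where Crisp1 was not well above background (LFC D6, D10, W12 and W18, HFC W9 and W18, and W6 of every dose), 3 to 15 members were well above background. On the other 29 arrays the count ran from 3, on the dim HF5 W12 array, to 45, and the next lowest was 14 on LFC W0. A low Crisp1 level that was still well above background went with few members on LFC W0 (−5.96) but not on HF20 W18 (−5.89), where 29 members were read. The dimmest arrays, HF5 W12 and HF75 W3, were not among the 9, but the next dimmest were: LFC D6 (75th percentile 228.9), LFC W18 (229.8) and LFC D10 (261.6). The 75th percentiles of the 9 ran from 228.9 to 1588, with 57.0% to 73.0% of all probes well above background. This division rests on measured values and is given as a description, with no test between its sides.

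**Figure D1:**
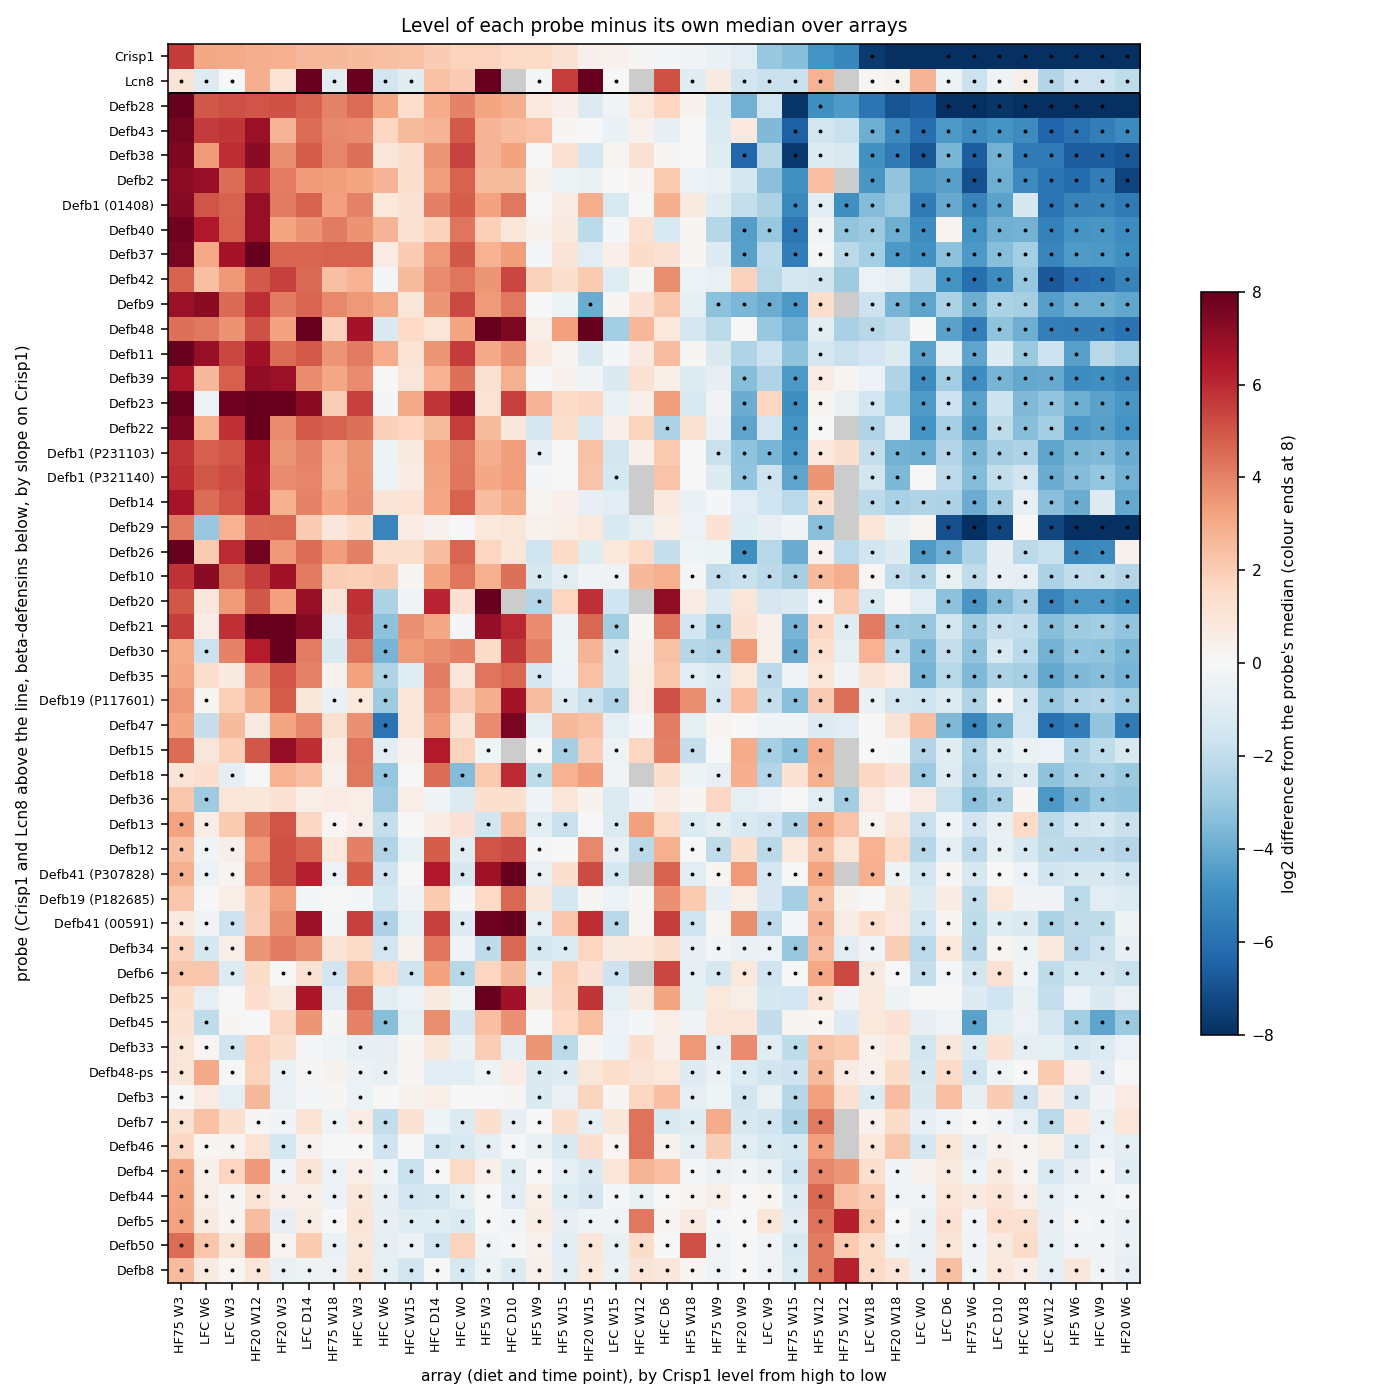
Level of Crisp1, Lcn8 (both above the line) and the 48 beta-defensin probes (rows, ordered by slope on Crisp1) on the 38 arrays (columns, ordered by Crisp1 level), each as a log2 difference from the probe's own median over arrays; black dots mark values not well above background and grey cells values that were left out as outlier spots. Most members of the upper rows are red on the arrays at the left and blue on those at the right, while Defb25, Defb3 and the lowest rows are not ordered in this way.

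The 10 members read well above background on the most arrays are taken first, and their levels are given by diet as the lowest, median and highest array. Defb28, a member of the chromosome 2 cluster, had the widest range of all. Its level was −7.74, −2.52 and 6.31 in LFC, −8.25, 3.47 and 5.64 in HFC, −8.25, 1.52 and 4.30 in HF5, −7.19, −1.31 and 6.27 in HF20, and −8.10, −1.71 and 9.58 in HF75. All 5 diets held both near-background and very bright arrays, and their ranges overlapped almost entirely. The Defb28 spot was saturated on 6 arrays (LFC W3 and W6, HFC W0, HF20 W3 and W12, HF75 W3), where its level is a lower bound.

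Defb11, on chromosome 8, and Defb26, on chromosome 2, had a like spread. Defb11 stood at −6.78, −3.41 and 4.45 in LFC, −5.47, 0.23 and 3.09 in HFC, −6.82, −2.38 and 0.54 in HF5, −5.28, −3.62 and 4.25 in HF20, and −6.70, −3.95 and 6.26 in HF75. Defb26 stood at −7.75, −4.30 and 2.76 in LFC, −8.32, −1.80 and 1.48 in HFC, −8.35, −3.19 and −1.47 in HF5, −8.07, −3.49 and 4.53 in HF20, and −7.14, −4.44 and 4.80 in HF75. For both, the highest arrays of HF20 and HF75 were W12 and W3, and the diets overlapped.

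Defb42 and Defb47 lie in the chromosome 14 cluster. Defb42, known from the epididymal epithelium, was at −9.04, −3.74 and 2.17 in LFC, −8.34, 0.32 and 3.03 in HFC, −8.43, −1.91 and 1.18 in HF5, −7.68, −0.39 and 3.14 in HF20, and −8.40, −3.35 and 2.41 in HF75. Defb47 was at −8.86, −3.45 and 1.02 in LFC, −8.85, −1.90 and 4.69 in HFC, −8.42, −3.69 and 0.89 in HF5, −8.51, −2.06 and 0.21 in HF20, and −8.15, −2.92 and 0.27 in HF75. Within each dose group the W6 array was the lowest for both and not well above background. D14 or D10 was the highest in LFC and HFC.

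Other members of the chromosome 2 cluster moved less or on other arrays. Defb36 spanned only −7.60, −3.81 and −2.06 in LFC, −6.06, −3.08 and −1.74 in HFC, −6.67, −3.12 and −1.70 in HF5, −6.16, −2.90 and −1.81 in HF20, and −6.29, −2.72 and −0.83 in HF75. Defb45 spanned −6.15, −4.67 and −0.57 in LFC, −8.31, −4.39 and −0.10 in HFC, −6.90, −4.01 and −1.67 in HF5, −7.07, −3.02 and −1.67 in HF20, and −8.39, −3.94 and −2.85 in HF75. No array raised either of them above its own 75th percentile, and the diets overlapped.

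Defb19, known from the Sertoli cells of the gonad as well as from the epididymis, was at −5.59, −4.32 and −3.38 in LFC, −5.66, −4.36 and 0.35 in HFC, −6.43, −3.00 and −1.91 in HF5, −5.32, −3.56 and −0.91 in HF20, and −6.94, −4.59 and −2.05 in HF75. Its lowest and middle values were close in LFC and HFC, and HFC D10 alone rose above the 75th percentile. The other Defb19 probe was well above background on 16 arrays against 35 for this one.

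Defb29 was at −7.38, −0.995 and 2.75 in LFC, −8.30, 0.11 and 1.39 in HFC, −8.42, −0.13 and 0.81 in HF5, −8.66, 0.11 and 4.52 in HF20, and −8.40, 0.86 and 4.11 in HF75, where its W12 spot was left out as an outlier. It stayed bright on several arrays where Crisp1 was low, with 0.19 on LFC W0, 0.94 on LFC W18, −0.05 on HFC W18 and −0.59 on HF20 W18. On LFC W6 and HFC W6, where Crisp1 was high, it stood at −3.09 and −5.35.

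The relation of each probe to Crisp1 was then fitted over all 38 arrays, with diet and time point as terms, so that a slope of 1 means that a probe changed by as many log2 units as Crisp1. Of 43 members tested, 29 probes of 26 genes passed, all with a positive slope, and the other 5 probes of the 48 were too dim to test. Over the whole array 5.19% of 33689 probes passed with a positive slope (limma, Benjamini-Hochberg adjusted p below 0.05), or 1749 of 2452 called either way. All 43 members had a slope above 0, with a median of 0.34, against a median of −0.0004 over all probes. The called slopes ran from 0.12 to 0.95, and 14 were above 0.5.

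Defb28 had the smallest p of all 33689 probes, with a slope of 0.95 (SE 0.04, limma adjusted p = 2.03e-14). Defb42 followed among the members with 0.57 (SE 0.04, adjusted p = 3.64e-10) and Defb43, its neighbour on chromosome 14, with 0.71 (SE 0.06, adjusted p = 2.84e-09 by limma). Defb2, first described as a gene induced by bacterial lipopolysaccharide, had 0.70 (SE 0.06) at an adjusted p of 4.29e-09 by limma. Among the 100 smallest p of the array 14 belonged to beta-defensin probes. The levels of these members rose and fell over the same arrays as Crisp1, within and across diets.

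Defb37, Defb38, Defb39 and Defb40, known for expression in particular segments of the mouse epididymis, had slopes of 0.58, 0.70, 0.52 and 0.61 and all passed. Defb22, whose product is part of the sperm coat, had 0.51, and Defb23 had 0.52, and both passed. Defb29 passed with 0.43 (SE 0.07, limma adjusted p = 1.82e-04). Defb36 had one of the shallowest called slopes, at 0.14 (SE 0.04, limma adjusted p = 0.0285).

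The members of mucosal linings did not behave alike. The 3 probes of Defb1, the constitutive defensin of kidney, airway and genital epithelium, all passed, with slopes of 0.63, 0.47 and 0.44. Defb14, the mouse counterpart of human beta-defensin-3 of skin, passed with 0.43 (SE 0.05, limma adjusted p = 3.00e-06). Defb3, induced in infected airways, was well above background on 29 arrays, as many as Crisp1, and had a slope of 0.03 (SE 0.04, limma adjusted p = 0.709). Defb6, known from muscle and upper digestive tract, had 0.10 (SE 0.06, limma adjusted p = 0.352), and Defb4, an inducible airway defensin, was well above background on 7 arrays and was not tested.

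Per diet, the same members were read as follows. Defb1 stood at −8.96, −6.04 and 2.02 in LFC (lowest, median, highest array), where 5 of 10 arrays were well above background, and at −8.32, −1.02 and 1.81 in HFC, where 9 of 10 were. Defb14 stood at −7.83, −6.32 and 0.59 in LFC and at −5.51, −3.34 and 0.26 in HFC. Both had lower medians in LFC, with nearly the same highest level. Defb3 stood at −6.01, −4.83 and −2.44 in LFC and −6.52, −4.78 and −2.43 in HFC, and both diets had it highest at D6. Defb6 was read well above background on 1 of 10 LFC and 5 of 10 HFC arrays, and Defb4 on 2 and 3, and on none of 6 in HF5.

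By chromosome the calls fell unevenly. All 5 tested probes on chromosome 14 passed (Defb30, Defb42, Defb43, Defb47 and Defb48), as did 10 of 12 on chromosome 2 and 14 of 21 on chromosome 8. None of 3 passed on chromosome 1, which holds Defb18 and Defb41, and neither did Defb33 and Defb48-ps, for which the array file gives no chromosome. These are counts with no test of a difference between chromosomes.

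**Figure D2:**
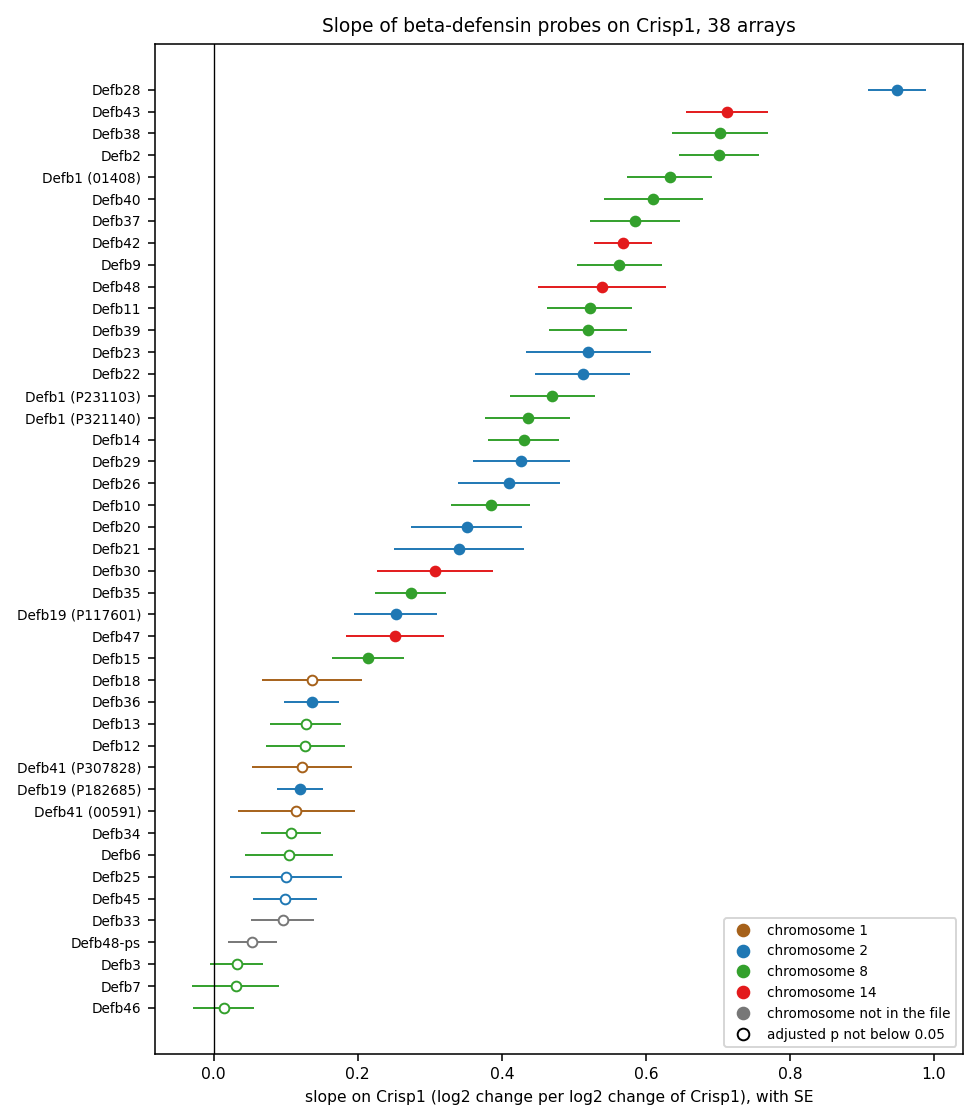
Slope of each of the 43 tested beta-defensin probes on Crisp1 (log2 change per log2 change of Crisp1, 38 arrays, diet and time point as terms), with bars of 1 SE, coloured by chromosome; open points did not pass an adjusted p of 0.05. All slopes lie above 0, from 0.01 for Defb46 to 0.95 for Defb28, and all 5 red points of chromosome 14 are filled.

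Fewer slopes passed over a part of the arrays. Over the arrays with Crisp1 well above background, 19 of 43 members passed, against 0.978% of all probes with a positive slope. Over the 9 arrays with Crisp1 not well above background, fitted without diet and time point, 0 of 16 members and 0 of 32285 probes passed, and an unadjusted p below 0.05 went to 6 members and to 4061 probes (limma). The Crisp1 levels of these 9 arrays are not well above background and have no order, so that no slope can be read from them. With the mean of the other epididymal genes in place of Crisp1, 33 of 43 members passed, against 4.04% of all probes. With the array's brightness as a covariate the count was 29, as it was without either of the dim arrays HF5 W12 and HF75 W3.

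**Figure D3:**
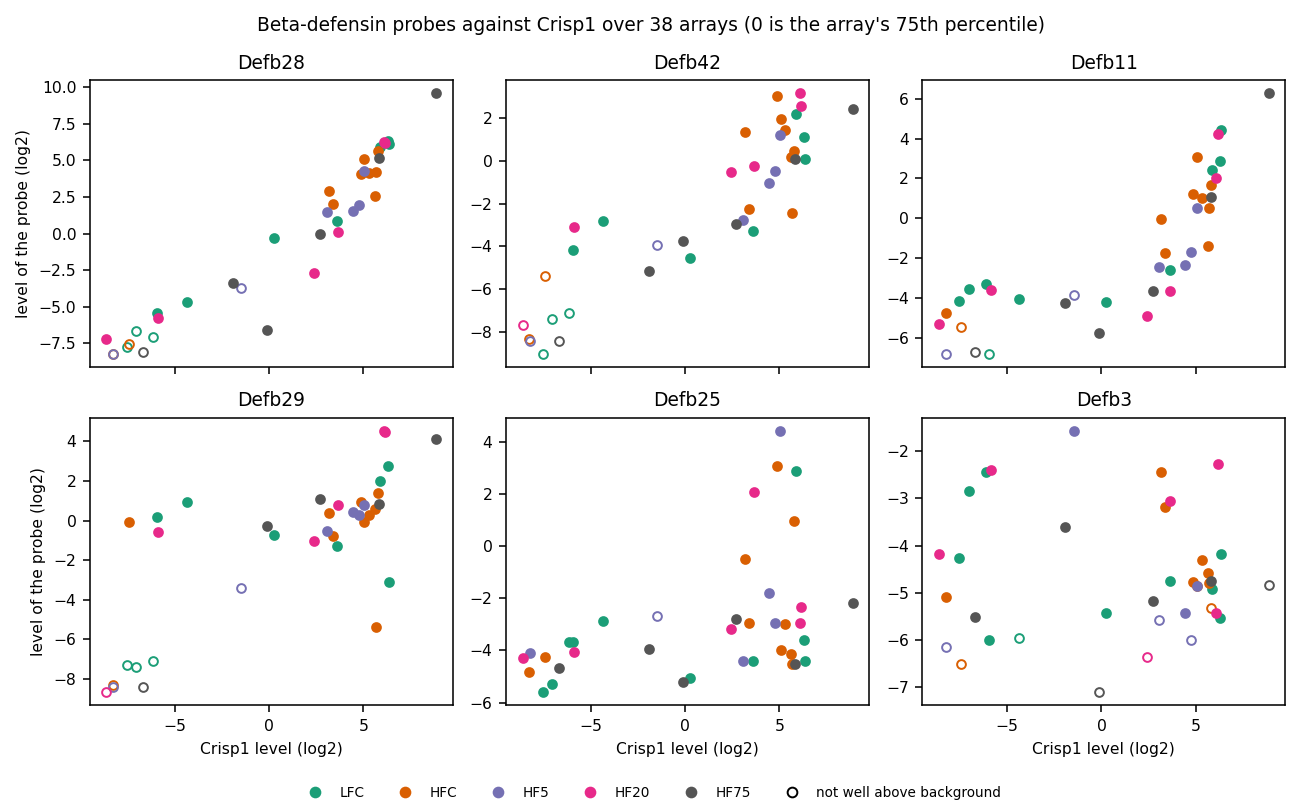
Level of 6 beta-defensins (vertical axes, log2) against the level of Crisp1 (horizontal axes, log2) on the 38 arrays, where 0 is the array's 75th percentile, colour is the diet and open points are not well above background. Defb28, Defb42 and Defb11 rise with Crisp1, Defb29 is bright on some arrays of low Crisp1, and Defb25 and Defb3 have slopes of 0.10 and 0.03 that did not pass.

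Genes of other cell types were set on the same scale. Of 22 tested epididymal duct genes 10 passed with a positive slope on Crisp1, among them Spink8, a protease inhibitor, at 0.97 (SE 0.05) and Rnase12, a member of the ribonuclease A family, at 0.74 (SE 0.04). Of 10 sperm and spermatid genes 6 passed, among them the protamine genes Prm1 and Prm2, against 0 of 4 seminal vesicle genes, 0 of 9 macrophage genes and 0 of 7 adipocyte genes. Of 5 mesothelial genes, which mark the lining of the fat pad, 1 passed, Krt19 (0.18, SE 0.05, limma adjusted p = 0.0365), and all 5 slopes were above 0. The adipocyte slopes were all below 0. The part of these cells in the levels of the beta-defensins was not tested.

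Antibacterial genes outside the family were set beside Crisp1 as well. Of 20 such genes tested 2 passed, both upward, where 5.19% of all probes did: Ltf (lactoferrin) with 0.30 (SE 0.06, limma adjusted p = 0.00134) and Bpi, a protein that binds bacterial endotoxin, with 0.25 (SE 0.06, limma adjusted p = 0.00664). The 4 of highest level, Slpi, S100a9, Lyz1 and Lbp, were well above background on all 38 arrays and had slopes of 0.03, −0.01, −0.03 and 0.0001, none of which passed. Slopes were positive for 11 of the 20, with a median of 0.0007, against 43 of 43 and 0.34 for the beta-defensins.

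Defb25 was read on more arrays than any other member, 37 of 38, and its slope on Crisp1 did not pass (0.10, SE 0.08, limma adjusted p = 0.533). In LFC it lay between −5.60 and −2.88 on 9 arrays and at 2.88 on D14. In HFC it was at −0.51 on D6, 3.09 on D10, 0.97 on W3 and between −4.82 and −2.96 on the others. It was at 4.41 on HF5 W3 and 2.08 on HF20 W15, and never above −2.17 in HF75. Bright arrays thus stood in 4 diets, at D6 and D10 in HFC, D14 in LFC, W15 in HF20, and W3 in both HFC and HF5, which were scanned on the same slide and day.

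Lcn8, a lipocalin secreted by the first part of the epididymal duct, was high on the arrays where Defb25 was, as far as it had a value there. Its level was 5.37 on HF5 W3, 4.10 on LFC D14, 3.23 on HF20 W15 and 1.82 on HFC W3, and −1.12 or lower on all others with a value. Its spot was left out as an outlier on 3 arrays, HFC D10 among them, and it was well above background on 12. Lcn8 was taken up after these levels had been seen, so its slopes describe the pattern and are no independent test of it.

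A slope on Lcn8 over its 35 arrays was called for 17 of 33590 probes (0.0506%), and 2 of 43 members were among them. Defb25 had the smallest p of all probes, with a slope of 0.60 (SE 0.04, limma adjusted p = 8.79e-10). Defb41, known from the epididymis and read here by the brighter of its probes, had 0.52 (SE 0.08, limma adjusted p = 0.00407). Leaving out each time point in turn kept Defb25 called, at a largest adjusted p of 5.24e-06 by limma without W3. Defb41 was lost without W3 (limma adjusted p = 0.997) and without W15 (0.0683).

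With Crisp1 and Lcn8 in 1 model, 0.0566% of 33589 probes passed on Lcn8, and 4 members. These were Defb25 (0.59, limma adjusted p = 3.06e-09), Defb48 (0.65, SE 0.08, adjusted p = 0.000334), Defb41 (0.52, adjusted p = 0.0069) and Defb20 (0.46, SE 0.09, adjusted p = 0.0463). Defb48 and Defb20 passed on Crisp1 in the same model too, with slopes of 0.45 and 0.32, whereas Defb25 had 0.01 there and Defb28 had 0.95. Without W3 only Defb25 passed on Lcn8. The Defb41 call was also lost without W15 (limma adjusted p = 0.0905), and the Defb20 call without any of W0, W6, W9, W12, W15 and W18.

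**Figure D4:**
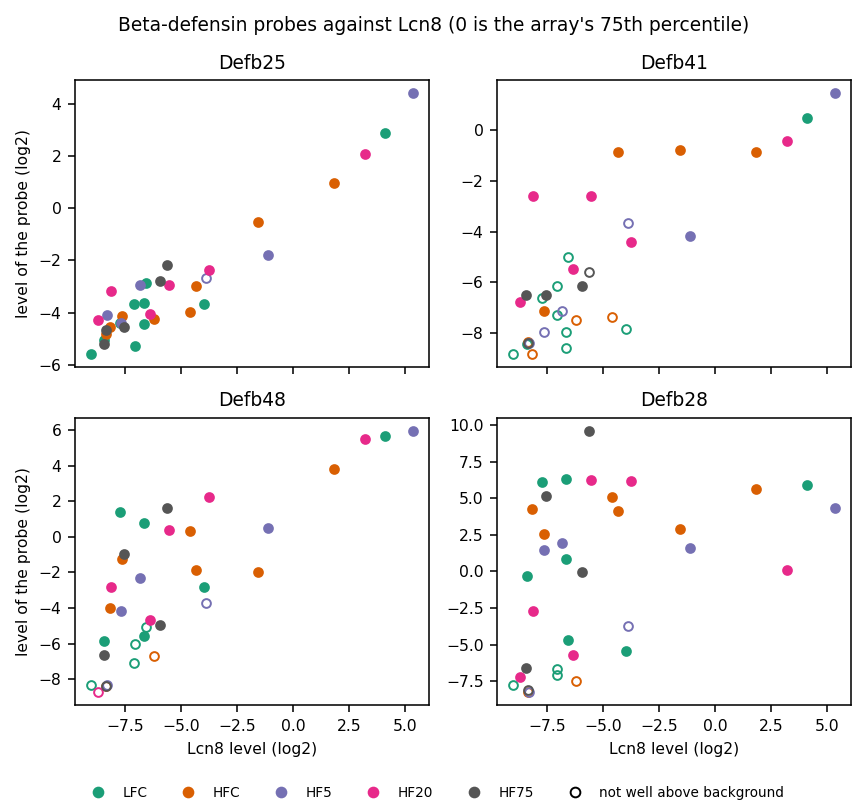
Level of Defb25, Defb41, Defb48 and Defb28 (vertical axes, log2) against the level of Lcn8 (horizontal axes, log2) on the 35 arrays with a Lcn8 value, where 0 is the array's 75th percentile, colour is the diet and open points are not well above background. Defb25 follows Lcn8 with a slope of 0.60, Defb48 also has bright arrays at low Lcn8, and Defb28 is bright at low and at high Lcn8.

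Mesothelial genes, which mark the lining that covers fat pad and epididymis, were taken as a further axis after the values had been seen. Of all probes 0.724% passed with a positive slope on the mean of Msln, Upk3b, Wt1, Lrrn4 and Krt19, and of 43 members Defb47 alone did (0.80, SE 0.17, limma adjusted p = 0.0224). Slopes on this mean were above 0 for all members but Defb3 and Defb46. The steepest, Defb48 (1.05, SE 0.32) and Defb28 (0.97, SE 0.49), did not pass, nor did Defb29 (0.66, SE 0.27, limma adjusted p = 0.210). The mesothelial mean ran from −5.52 on LFC D10 to 3.09 on HF20 W9.

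The first question of the design is whether the high-fat diet changed these genes. At single time points the beta-defensins differed widely between HFC and LFC mice, but in both directions. HFC was at least 2-fold above LFC for 35 of 41 members at D6 (15.9% of all probes), 36 of 39 at D10 (20.7%), 31 of 38 at W0 (10.2%), 35 of 38 at W12 (39%) and 26 of 43 at W15 (11.1%). It was at least 2-fold below for 26 of 34 members at W6 (13.2% of all probes), 19 of 24 at W9 (6.96%) and 12 of 16 at W18 (13.1%). No member was 2-fold above LFC at W6 or W9, where 10.2% and 6.73% of all probes were, and 1 was at W18, where 21.4% were. At D14 and W3 the family split, with 5 of 43 members above and 20 below at D14 (12.8% of all probes above and 9.56% below) and 12 of 40 above and 17 below at W3 (10.2% above and 9.46% below). Only members well above background on at least 1 of the arrays compared were counted, and at D6, D10, W0, W9, W12 and W18 most of them entered through 1 array alone. Of members well above background on both arrays, HFC was at least 2-fold above for 4 of 7 at D6, 6 of 8 at D10, 9 of 14 at W0, 8 of 11 at W12 and 19 of 31 at W15, and at least 2-fold below for 19 of 25 at W6, 1 of 6 at W9 and 3 of 6 at W18. At D14 and W3 these were 4 above and 19 below of 40, and 7 above and 15 below of 30. Of all probes well above background on both arrays, 8.37% were above at D6, 13.8% at D10, 4.67% at W0, 26.4% at W12 and 7.76% at W15. The share below was 11.5% at W6, 3.72% at W9 and 13.96% at W18. It was 7.55% above and 9.104% below at D14, and 8.91% above and 5.01% below at W3.

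The median difference over the members was 3.50 log2 units at D6, 5.81 at D10, −0.97 at D14, 2.89 at W0, −0.56 at W3, −2.47 at W6, −0.87 at W9, 4.26 at W12, 1.18 at W15 and −1.02 at W18. For Crisp1 a direction can be read at 7 time points, higher in HFC at D6, D10, W0, W12 and W15 and lower at W3 and W9, and the members' median had the same sign at these 7. That median takes in every member with a value, also those not well above background on either array. At W9 it covered 48 members, of which 24 were well above background on at least 1 array. At D14 and W6 the dimmer Crisp1 spot was saturated, and at W18 neither spot was well above background. At D6 and D10 the HFC arrays were also brighter, by 1.56 and 1.84 log2 units of their 75th percentile.

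Single folds were very large. Where 1 array was not well above background a fold is given as a lower bound, taking for that array the higher of the probe's own level and the lowest level well above background on it. Defb28 was at least 213-fold higher in HFC at D6, at least 596-fold at D10, at least 1515-fold at W0 (the HFC spot was saturated) and at least 455-fold at W12, and at least 53.6-fold lower at W9. Crisp1 was at least 258-fold higher at D6, 1071-fold at D10, 2077-fold at W0 and 1166-fold at W12, and at least 80.02-fold lower at W9. Defb25, read on both arrays each time, was 329-fold higher at D10 and 57.5-fold lower at D14. Each value rests on 1 array per diet. If D14 and W0 are 1 time sampled again, the repeat gave other differences: HFC minus LFC was −5.85 log2 units at D14 and −0.33 at W0 for Defb25, −1.75 and 10.57 for Defb28, and −0.54 and 11.02 for Crisp1. The HFC spot of Crisp1 was saturated at both and that of Defb28 at W0.

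**Figure D5:**
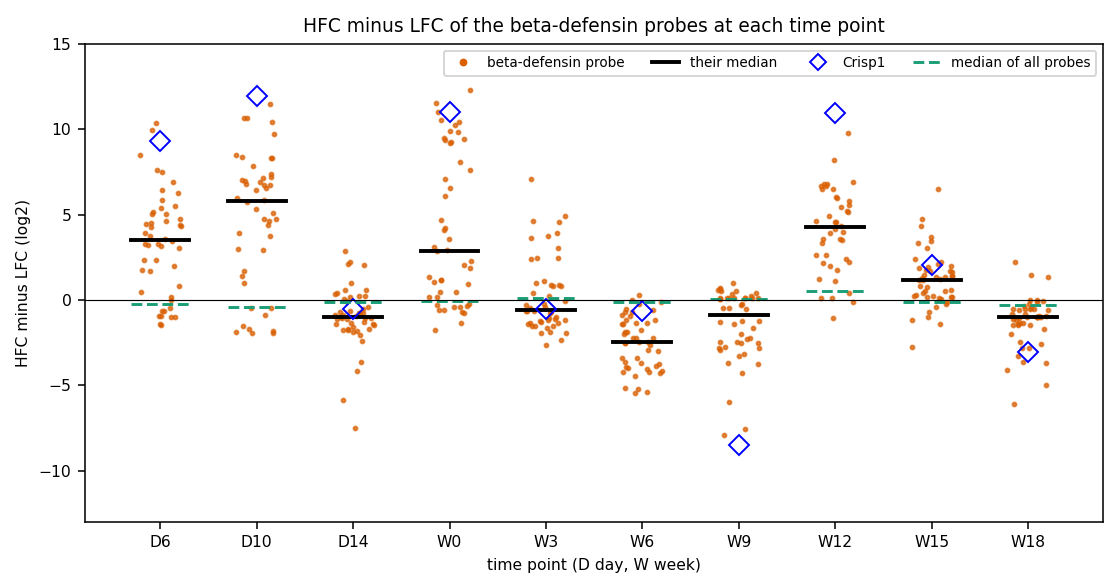
HFC minus LFC (vertical axis, log2) of each beta-defensin probe (orange points) at the 10 time points (horizontal axis), with the median over the members (black bar), Crisp1 (blue diamond) and the median of all probes (green dashes). The members' median is highest at D10 (5.81) and lowest at W6 (−2.47), and the median of all probes lies between −0.41 and 0.54.

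Across the 10 time points no beta-defensin passed the test of HFC against LFC. Of 41 members tested 0 were called, as were 0 of all 31029 probes (0%, limma, adjusted p below 0.05, time point as a block), and the smallest adjusted p of a member was 0.545. At an unadjusted p below 0.05, 2 members were higher and none lower, against 4.57% of all probes higher. The mean difference was above 0 for 40 of 41 members, with a median of 1.29 log2 units, against 0.0063 over all probes. The median residual SD of a member was 2.81 log2 units, against 0.58 over all probes, so a mean difference of this size lies within the spread of the time points. A member could enter the test through a single diet, and several did so through HFC alone, Defb6 and Defb13 among them. The count above 0 and the median difference may therefore follow in part from the filter.

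The 3 members of smallest p were the dimmer Defb19 probe (2.08 log2 units higher in HFC, SE 0.93), Defb15 (1.45, SE 0.64) and Defb1 (2.79, SE 1.40), and none passed adjustment. This Defb19 probe and Defb15 entered the test through HFC alone. Most of their LFC levels were not well above background, so the sizes of these differences are uncertain. Without D6 and D10 the median difference was 0.62 log2 units and 29 of 39 members were higher. The mean level of the 23 genes of the epididymal list had a median of −5.18 over LFC arrays (−7.43 to 1.99) and −2.50 over HFC arrays (−7.55 to 2.03). The median was also higher in HFC for the sperm list (−4.20 and −2.79), the mesothelial list (−0.21 and 1.45) and the macrophage list (1.16 and 1.96). It was higher too for the seminal vesicle and antibacterial lists, and lower for the adipocyte list (2.78 and 2.19). The part of these lists in the difference was not tested.

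The difference between HFC and LFC was larger in the first 4 time points than from W3 on for most members, but no member passed the test of that change. Of 41 members 0 were called, as were 0 of all probes (0%), with a smallest adjusted p of 0.470 by limma, while 15 had an unadjusted p below 0.05, all toward a lower difference at weeks 3 to 18, against 3.56% of all probes. The median change was −3.98 log2 units, against 0.09 over all probes. Both Defb19 probes led, at −2.74 (SE 0.55) and −4.68 (SE 1.36), followed by a Defb1 probe at −4.60 (SE 1.58). Without D6 and D10, 3 members had an unadjusted p below 0.05, 1 of them toward a higher difference, as did 801 of 30918 probes, and the median change was −2.66. With D14 and W0 as 1 time point 10 members had an unadjusted p below 0.05, all toward a lower difference, as did 2188 of 31029 probes in either direction.

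No beta-defensin passed the test between time points. The LFC and HFC arrays of each time point were scanned on a day of their own, so time and scan day cannot be told apart here. Over the 10 time points, 0 of 41 members were called, against 4.53% of all probes (limma, adjusted p below 0.05), and 8 had an unadjusted p below 0.05, against 34.5%. Defb3 came nearest, with an adjusted p of 0.0513 by limma, before Defb34 (0.0572) and Defb15 (0.0616). Without D10, 4 of 37 members passed and 3242 of 30207 probes. Without W12, 3 of 41 members passed and 6984 of 30221 probes. With D14 and W0 as 1 time point, 1 of 41 members passed (Defb3, limma adjusted p = 0.0419) and 2295 of 31020 probes.

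The second question is whether the KAL-1 doses changed these genes relative to the high-fat diet alone, over W3 to W18 (30 arrays, week as a block). The 3 doses share the same HFC arrays. A member could enter this fit through a single group, as Defb13 and Defb46 did through HF20. Defb12 entered through HF20 and HF75 alone. Counts of members higher than HFC may follow in part from this filter. No member of 42 passed at any dose or for the mean of the doses, and no probe of the array did (0% of 33711 in each comparison, limma, adjusted p below 0.05).

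At HF5, 23 of 42 members were higher than HFC, with a median of 0.22 log2 units, and 1 had an unadjusted p below 0.05, against 3.68% of all probes higher. The smallest p belonged to Defb33 (1.59, SE 0.76), a Defb19 probe (1.05, SE 0.53) and Defb12 (1.62, SE 0.84), none of which passed. At HF75, 22 of 42 were higher, with a median of 0.01, and 0 had an unadjusted p below 0.05, against 0.694% of all probes. Its smallest p belonged to Defb12 (0.90, SE 0.84), Defb29 (1.48, SE 1.62) and Defb30 (−1.28, SE 1.45), and none passed.

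At HF20, 33 of 42 members were higher, with a median of 0.90 log2 units, and 7 had an unadjusted p below 0.05, all higher, against 1.3% of all probes. Defb12 had the fifth smallest p of the whole array, at 2.88 log2 units above HFC (SE 0.84, limma adjusted p = 0.9999). This rank is no independent sign of a rise, since Defb12 passed the filter only through dose groups, HF20 among them. Its level was −1.16, −8.58, −4.97, −2.78, −2.37 and −4.66 from W3 to W18 in HF20, against −2.18, −8.65, −8.29, −8.39, −6.75 and −7.54 in HFC. At W6 neither array was well above background, and at W9, W12 and W18 the HFC array was not, so that a level measured on both sides was had at W3 and W15 alone. HF20 was the higher at these 5 weeks, and the ranges of the groups overlapped. A Defb19 probe (1.48, SE 0.53) and Defb34 (1.87, SE 0.68) followed, and none passed. With scan day as the block, 3 members had an unadjusted p below 0.05, all higher, as had 257 of 33711 probes (167 higher), and the median was 0.18.

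For the mean of the doses 30 of 42 members were higher, with a median of 0.28 log2 units and 1 member at an unadjusted p below 0.05, against 1.42% of all probes. Defb12 (1.80, SE 0.68), a Defb19 probe (0.85, SE 0.43) and Defb33 (1.08, SE 0.62) had the smallest p, and none passed. With the doses taken from the diet label of the 4 arrays in conflict, 0 members passed at HF5 and HF20, and 4 of 40 had an unadjusted p below 0.05 at each, against 1052 of 32485 probes at HF5 and 1019 at HF20.

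At single weeks the doses differed from HFC in both directions. At W6 members were at least 2-fold below HFC for 23 of 29 at HF5 (9.11% of all probes), 22 of 30 at HF20 (9.49%) and 22 of 27 at HF75 (15.2%). At W9 they were at least 2-fold above for 27 of 28 (26.1%), 23 of 26 (26%) and 25 of 28 (23.7%), and at W18 for 22 of 29 (12.8%), 22 of 29 (20%) and 28 of 38 (11.8%). At these weeks too most members entered through 1 array alone. Of those well above background on both arrays, 0 of 1, 3 of 8 and 1 of 3 were below at W6, 5 of 5, 3 of 5 and 3 of 6 above at W9, and 2 of 7, 3 of 7 and 2 of 7 above at W18. Among all probes well above background on both arrays, 4.91% (HF5), 7.02% (HF20) and 10.54% (HF75) were at least 2-fold below at W6. In the same order, 21.57%, 19.98% and 17.67% were above at W9, and 6.75%, 9.02% and 6.72% at W18.

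At the other weeks the doses did not share a direction. At W3 members were at least 2-fold above and below HFC for 10 and 16 of 40 at HF5, 15 and 8 of 40 at HF20, and 22 and 8 of 37 at HF75. Of all probes 9.30% and 4.62%, 10.1% and 3.25%, and 25.2% and 27.0% were above and below. At W12 the member counts were 11 and 12 of 38, 29 and 3 of 40, and 5 and 16 of 34. The shares of all probes were 29.0% and 15.7%, 16.8% and 25.0%, and 18.8% and 16.4%. At W15 the member counts were 9 and 17 of 43, 18 and 15 of 43, and 2 and 33 of 42. The shares of all probes were 4.48% and 12.5%, 11.3% and 7.06%, and 6.06% and 17.9%. Of all probes, 4.48% to 29.0% were above and 3.25% to 27.0% below in these 9 pairs. Over all 18 pairs of a dose with HFC, 28.8% of all probes differed by at least 2-fold either way. The HFC array was at −8.28 for Crisp1 at W9, −7.45 at W18 and 5.69 at W6, so the W9 and W18 arrays of every dose are compared with an HFC array low in Crisp1 and those of W6 with one high in it. The W9 arrays of every dose were also scanned on another day than HFC W9, as were HF20 and HF75 at W3 and W18 and HF75 at W6. Dose and scan day cannot be told apart in these pairs.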

How the data were processed

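RNA of epididymal stromal vascular cells was hybridised to 38 one-colour Agilent arrays, 1 per diet and time point, and scanned with Agilent Feature Extraction (9.1 per the submitters' processing notes, 10.5.1.1 in the file headers). The deposited scanner files give the processed intensity of each spot, from which the authors' software had subtracted background. The authors also deposited a table of log2 ratios in which each array is set against LFC of its own time point, which matched ratios from the scanner files (lowest r = 0.992) and was used as an alternative only.

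Control spots and outlier flags were left out, spots of a probe were averaged, and the log2 75th percentile of each array was subtracted. Probes well above background on at least 0.5 of the arrays of 1 diet were tested with limma (3.58.1; R 4.3.3), two-sided, and p-values were adjusted by Benjamini-Hochberg across the whole array, at 0.05. HFC was compared with LFC over 20 arrays and the doses with HFC over 30. Time point was a block, so that arrays were compared within their time label. The labels do not say whether the arrays of 1 time label were sampled together. At each time point both control diets were scanned on 1 day, whereas several dose arrays were scanned on another (14 scan days in all). The slope on Crisp1 used all 38 arrays with diet and time point. The scripts were tested on simulated data. No 2 arrays held the same values (highest r 0.985).

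The members, lists and tests were chosen with earlier results of these data known. A gene was named where it was among the 10 members read on most arrays, was one of 5 mucosal members (Defb1, Defb3, Defb4, Defb6, Defb14), or had 1 of the 3 smallest p of a comparison; Defb2, Defb22, Defb23, Defb25 beside Lcn8, Defb37 to Defb43, Defb48 and Defb20 were named after their values were seen. The slopes on Lcn8 and on mesothelial genes, and the fits without D6 and D10, without HF75 W3 or with D14 and W0 as 1 time point, were added after seeing the data. Alternatives were other scalings, background corrections and filters, brightness as a covariate, no block, scan day, the diet label's dose, and leaving out each time point. Probe sequences and chromosomes come from the deposited array files.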

Additional observations from a re-analysis of the deposited data

Results flagged for a closer look

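Of 85 groups of 6 to 10 arrays of 1 diet examined for a single array far from the rest, 9 held one. The groups share arrays and their probes vary together, so this count cannot be set against chance. Defb25 stood apart high on LFC D14 (2.88), HF5 W3 (4.41) and HF20 W15 (2.08), and Lcn8 on LFC D14 as well (4.10). Defb45 was high on LFC D14 (−0.57). Defb47 was low on HF20 W6 (−8.51), where it was not well above background. On HF5 W12, the dimmest array, Defb3 was high (−1.57), as was Defb4 (−3.93), which was not well above background there. Defb4 was also high on HF20 W12 (−4.33).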

How the results depend on the processing

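No member passed in HFC against LFC, in its change from W3 on, or at any dose under any setting run. The count between time points went from 0 (of 1404 probes called) to 2 with normexp and quantile scaling (of 2178), 1 with brightness as a covariate (of 726), 3 without D6 and D10 (of 715), 1 with D14 and W0 as 1 time point (of 2295), and 0 to 4 when leaving out each time point (of 32 to 6984). The 29 members called on Crisp1 became 19 with normexp and quantile scaling, 19 over arrays with Crisp1 well above background, 0 over those without (as of all probes), 2 with Lcn8 in place of Crisp1, and 22 (without W6) to 30 when leaving out each time point; the cause was not tested. Without the replicate block of time point, 0 members passed in each diet and dose contrast and 32 on Crisp1. Defb29 at HF75 ran from −0.24 (without W9) to 2.53 (without W6). Differences of at least 2-fold fell from 751 member and pair combinations to 312 where both arrays had to be well above background. Taking the percentile over probes detected on all arrays moved the median HFC minus LFC difference of all probes from 0.0063 to 0.15, and the positive share of calls on Crisp1 from 1749 of 2452 to 2035 of 2354. A filter on every array left no member in the dose and slope fits. With 1 array per diet and time point and dim arrays at 25.8 and 88.4, levels near background have no order. The study's methods, written for the liver, apply a t-test to replicate control and treated values within each time point. With 1 array per diet and time point here, a t-test of HFC against LFC across time points stood in for it. This t-test called 0 members and 0 probes after adjustment, and 303 probes but no member at an unadjusted p below 0.05 and at least 2-fold.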
